A study of Mus musculus with 36 samples.

Results

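The response of wild-type cortical neurons to 6 h of depolarisation was set against their response to 1 h, transcript by transcript. The quantity is a difference of differences: the log2 fold change of 6 h of KCl over 7 h of TTX and APV, minus the log2 fold change of 1 h of KCl over rest. A positive difference means a higher response at 6 h than at 1 h. It was computed over all 17 wild-type RNA-seq libraries of a series of 36 libraries that also profiled Actl6b-/- neurons and chromatin accessibility. The members were chosen by their labels alone, without measured values.

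All 4 groups came from primary cortical neurons of wild-type mouse embryos at stage E16.5, kept for 7 days in vitro. The first group had 7 h of TTX and APV with 6 h of KCl (3 libraries), and its control had 7 h of TTX and APV alone (4 libraries). The other pair was 2 h of TTX and APV with 1 h of KCl (5 libraries) and rest, which was 2 h of TTX and APV alone (5 libraries). TTX blocks voltage-gated sodium channels and APV blocks NMDA receptors, so that every group was silenced and the KCl groups were depolarised by the salt itself. Each KCl group thus has a control with the blockers for the same time. Library titles carry a code such as 3-7, and the labels do not say what it marks. It is called the culture code here, and libraries that share it are read as the same culture. The wild-type libraries hold 5 codes, the number of wild-type replicates the series states, and 3 cultures (3-7, 4-2 and 4-4) have a library in all 4 groups.

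Raised extracellular KCl depolarises the membrane, opens L-type calcium channels and lets calcium signals reach the nucleus. Transcription factors already present in the cell, such as CREB, SRF and MEF2, then switch on rapid primary response genes without new protein synthesis. Many rapid response transcripts are short-lived, and part of their products are themselves transcription factors. A delayed wave of genes, among them secreted and synaptic proteins, follows once these products have been translated. The contrast addressed here asks which transcripts belong to the early response, to the late one or to both. Neither the cell type markers nor the lists of rapid and delayed response genes could be read here, because the files list 115270 transcript identifiers without gene names and 0 of them matched the tables of gene names used. Results are therefore given per transcript and per course of response, and no gene name or role is attached to an identifier.

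The 6 h KCl libraries held 3627450 to 4051922 estimated counts and the 7 h TTX/APV libraries 3569516 to 4020984. Depth was greater in the 1 h experiment, with 6902985 to 8015063 after 1 h of KCl and 5873349 to 7578714 at rest. The libraries of the 6 h experiment also had larger TMM scaling factors (1.026 to 1.295) than those of the 1 h experiment (0.8613 to 0.9352), and between the controls 22.6% of tested transcripts were higher and 22.4% lower at 7 h than at 2 h of TTX and APV. Time in the blockers and set of libraries cannot be told apart there. Each response is read against its own control.

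More transcripts were called at 6 h than at 1 h. By edgeR's quasi-likelihood test, with an adjusted p under 0.05 over all 46790 transcripts tested, 3832 transcripts rose (8.19%) and 3150 fell (6.73%) at 6 h, against 1014 that rose (2.17%) and 1193 that fell (2.55%) at 1 h. The difference itself was called for 4052 transcripts. The 6 h response was the higher one in 2170 (4.64%) and the lower one in 1882 (4.02%). Among these, 195 of the higher and 312 of the lower ones differed by at least 3 on the log2 scale, as did 3589 of all 46790 tested transcripts. Of the 12321 tested transcripts with at least 10 CPM on average and no library at 0, 32 did. The share among the higher ones was thus near that of all tested transcripts but above that of these 12321. To the latter belonged 1629 of the 2170 higher and 1084 of the 1882 lower ones. The called transcripts were chosen for their difference, so this is a description. In the 3 cultures with all 4 conditions, 3974 of the 4052 had a difference of the same sign in every culture (98.1%), as had 41.5% of all tested transcripts. These cultures are part of the fit, so this describes the calls and does not add to them. When libraries were scaled by their totals alone, the median difference of all transcripts moved to -0.18, against 0.00 with TMM, and the split became 1445 higher and 2585 lower. With TMM the balance also turned without the 6 h KCl library of culture 3-7 (1633 higher, 1726 lower) and among differences of at least 2-fold (1310 higher, 1406 lower). Neither direction is therefore given as the more frequent one. Unless stated otherwise, the calls, fold changes and CPM values below are for TMM. TPM values are as deposited, without TMM scaling.

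**Figure D1:**
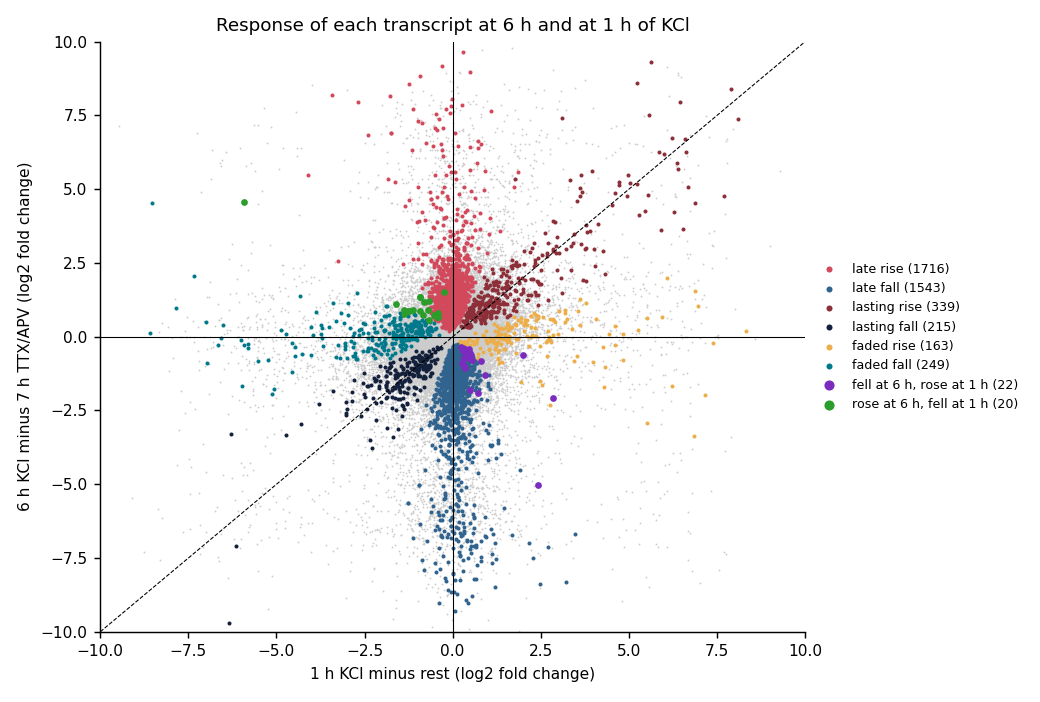
Each point is a transcript, with its log2 fold change at 6 h of KCl over 7 h of TTX and APV (y axis) and at 1 h of KCl over rest (x axis). Grey points belong to none of the coloured courses, the dashed line marks equal responses, and 6 transcripts beyond a log2 value of 10 are outside the axes. Late rises (1716) and late falls (1543) stretch along the vertical axis, faded changes along the horizontal one, and 42 larger points mark transcripts called in opposite directions.

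Courses were defined from calls at 6 h, at 1 h and in the difference, all in the same fit. A late change was called at 6 h and in the difference but not at 1 h. A faded change was called at 1 h, not at 6 h, and with a difference that went against it. A lasting change was called in the same direction at both times with no called difference. Growing and waning changes were called at both times with a larger or a smaller response at 6 h, and reversed ones were called in opposite directions. Since the same libraries define a course and give its fold changes, the sizes below are a description of each course.

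Late changes made up most of the difference. Late rises were 1716 of the 2170 higher differences (79.1%) and late falls 1543 of the 1882 lower ones (82.0%). The late rises had a median log2 fold change of 1.08 at 6 h and 0.02 at 1 h, and the late falls of -1.36 at 6 h and 0.09 at 1 h. For 1505 of the late rises and 1226 of the late falls, the 95% interval of the 1 h change lay within -1 to 1, so a 2-fold change at 1 h was outside it. For the others a change of that size at 1 h could not be told from none. Such an interval was also found for 16309 of all 46790 tested transcripts. Among the 12321 with at least 10 CPM on average and no library at 0 it was found for 10625. It was thus usual among well-measured transcripts and does not set the late changes apart from these. A further 1649 rises and 1344 falls were called at 6 h alone without a called difference, and whether they were late or already under way at 1 h is not resolved. Late rises were well-expressed transcripts, with a median of 29.3 TPM at 6 h of KCl, 14.8 at 7 h of TTX and APV, 24.6 at 1 h of KCl and 22.8 at rest, where the medians of all tested transcripts were 2.94 to 4.43 TPM. Their level at 6 h of KCl was thus near that at rest, and the control at 7 h was the low group, with a median 7 h minus 2 h log2 change of -1.03, against -0.63 over all tested transcripts with at least 10 CPM on average and no library at 0. That comparison shares the control libraries with the difference and is given only beside it. In CPM, 952 of the 1716 late rises had a higher mean at 6 h of KCl than at rest. So had 23195 of all 46790 tested transcripts and 4018 of the 12321 well-measured ones. The share in late rises was near that of all tested transcripts but above that of the well-measured ones, to which 1430 late rises belonged. Late rises were chosen for a high level at 6 h of KCl over its control, so this is a description. For late falls the median was 2.74 TPM at 6 h of KCl, 7.92 at 7 h of TTX and APV, 7.74 at 1 h of KCl and 7.06 at rest. Here the 6 h KCl group alone was low.

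The transcript that stands for the late rises is ENSMUST00000071782.7, 2536 bases long. Its levels in cultures 3-7, 4-2 and 4-4 were 248, 212 and 124 CPM (counts scaled to library size after TMM) after 6 h of KCl, against 5.87, 8.17, 5.84 and 5.93 CPM in the 4 cultures with 7 h of TTX and APV. After 1 h of KCl they were 15.9, 14.7, 11.2, 22.9 and 14.5 CPM, against 16.7, 15.7, 17.5, 34.1 and 13.05 CPM at rest. All 3 libraries with 6 h of KCl stood above every other library, the 7 h controls were below every other one, and the 1 h KCl and resting values overlapped. The log2 fold change was 4.91 at 6 h (SE 0.350, edgeR adjusted p = 3.26e-07) and -0.29 at 1 h (SE 0.263, edgeR adjusted p = 0.738). The difference was 5.20 (SE 0.428, edgeR adjusted p = 4.93e-06), with 4.96, 5.73 and 4.15 in cultures 3-7, 4-2 and 4-4. The other leading late rises were of the same kind: the first 5 by the naming rule had 6 h changes of 3.55 to 4.91 and 1 h changes of -0.29 to 0.41.

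ENSMUST00000035824.10, 4402 bases long, stands for the late falls. Its levels were 0.729, 0.743 and 3.17 CPM after 6 h of KCl, against 13.6, 14.1, 17.1 and 21.7 CPM with 7 h of TTX and APV. After 1 h of KCl they were 12.7, 16.4, 19.1, 14.4 and 13.3 CPM, against 12.2, 8.24, 11.6, 14.2 and 14.8 CPM at rest. The 6 h KCl libraries lay below all others, and culture 4-4 was the highest of the 3. The log2 fold change was -3.41 at 6 h (SE 0.422, edgeR adjusted p = 4.04e-05) and 0.31 at 1 h (SE 0.285, edgeR adjusted p = 0.746). The difference was -3.72 (SE 0.503, edgeR adjusted p = 0.00024), with -4.70, -4.69 and -2.49 in cultures 3-7, 4-2 and 4-4. The first 5 late falls by the naming rule had changes of -3.44 to -2.61 at 6 h and 0.23 to 0.44 at 1 h, and lengths of 1815 to 8910 bases.

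**Figure D2:**
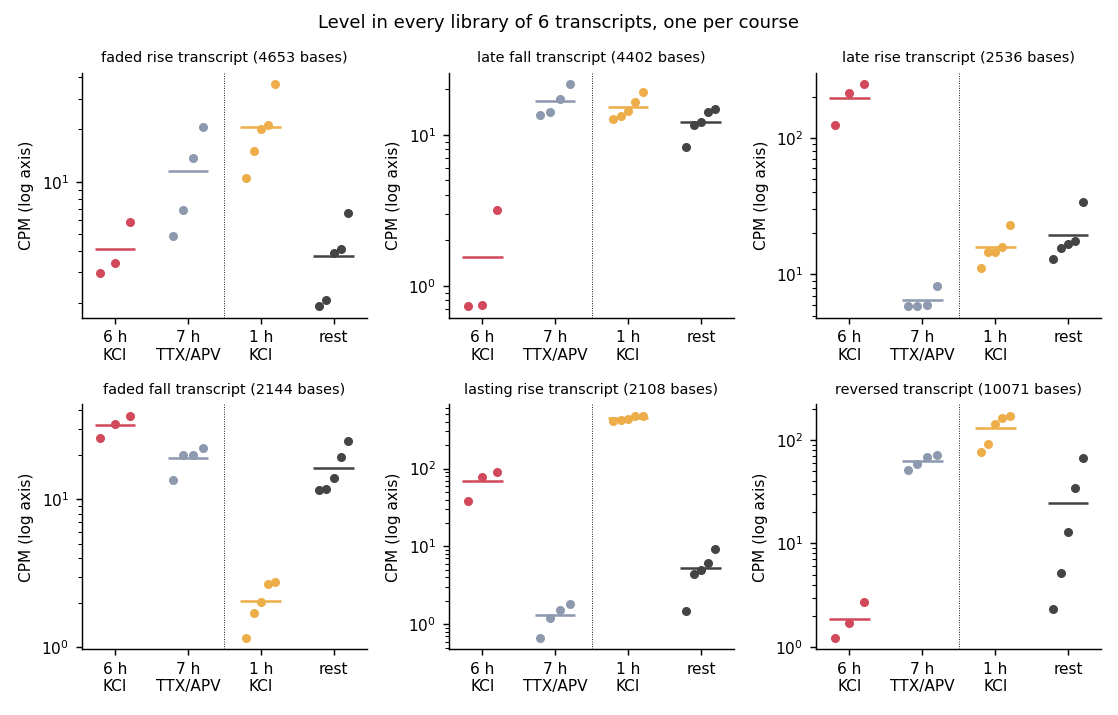
Levels of 6 transcripts in every wild-type library, in CPM on a log axis. Each panel has the 6 h KCl libraries and their 7 h TTX/APV controls on the left and the 1 h KCl libraries and resting ones on the right, with a line at each group mean. The late rise is high in the 6 h KCl group alone (124 to 248 CPM), the lasting rise is high in both KCl groups, and the reversed transcript is lowest at 6 h of KCl (1.22 to 2.72 CPM) and highest at 1 h.

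Of the 1014 transcripts that rose at 1 h, 163 faded (16.1%), 39 waned, 339 lasted (33.4%), 69 grew and 22 fell at 6 h. The other 382 (37.7%) were not called at 6 h and had no called difference, so neither loss nor persistence was shown for them. Their medians were 0.46 at 6 h and 1.39 at 1 h, and their difference was less precise, with a median SE of 0.469, against 0.361 for the faded rises. Faded rises had a median log2 change of -0.02 at 6 h and 1.73 at 1 h. A 6 h change below 0, opposite to that at 1 h, was found in 84 of the 163. Opposite signs were also found in 20532 of all 46790 tested transcripts and 5434 of the 12321 well-measured ones. The 95% interval of the 6 h change lay within -1 to 1 for 84 of the 163. So it did for 10210 of all tested transcripts and 7177 of the well-measured ones. Both were thus common among well-measured transcripts. The 7 h controls of the faded rises were higher than rest, with a median of 6.02 TPM at 7 h of TTX and APV and 1.77 TPM at rest. After KCl the medians were 5.59 TPM at 6 h and 7.61 TPM at 1 h. By mean CPM, 147 of the 163 were higher at 6 h of KCl than at rest, as were 23195 of all 46790 tested transcripts. Controls that were higher at 7 h were also found in other courses: the median 7 h minus 2 h log2 change was 1.45 in faded rises, 0.84 in faded falls and 1.13 in lasting falls. It was 1.29 in the 382 rises called at 1 h alone, 0.51 in waning, 0.33 in lasting and -0.83 in growing rises. Over all tested transcripts it was 0.07, and over the well-measured ones -0.63. The difference between these controls also separates the library sets, and its part in the fading was not tested.

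The faded rise named by the rule is ENSMUST00000113631.1, 4653 bases long. It was at 5.83, 2.97 and 3.42 CPM after 6 h of KCl, against 13.8, 4.86, 6.84 and 20.6 CPM with 7 h of TTX and APV. It was at 15.1, 20.1, 10.5, 36.7 and 21.1 CPM after 1 h of KCl, against 2.09, 1.91, 3.87, 4.07 and 6.61 CPM at rest. The 1 h KCl and resting libraries did not overlap, whereas the 6 h KCl libraries overlapped with the lower 7 h controls. The log2 fold change was -1.49 at 6 h (SE 0.563, edgeR adjusted p = 0.0928) and 2.47 at 1 h (SE 0.457, edgeR adjusted p = 0.00397). The difference was -3.97 (SE 0.732, edgeR adjusted p = 0.00283), with -2.92, -2.48 and -4.10 in cultures 3-7, 4-2 and 4-4. It was not called in those 3 cultures alone, where it was -3.47 (edgeR adjusted p = 0.0532), nor when those cultures were fitted with a term for each culture (-3.30, edgeR adjusted p = 0.0622). Over all 28 alternatives tried, the adjusted p ran from 2.75e-06 to 0.0622. The first 5 faded rises by the rule, with means of 10.1 to 23.7 CPM, had changes of -1.49 to 0.60 at 6 h and 2.47 to 3.24 at 1 h.

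Lasting rises had a median log2 change of 1.32 at 6 h and 1.26 at 1 h. A missed call does not show that both responses were alike. The 95% interval of the difference lay within -1 to 1 for 162 of the 339. For the others a 2-fold loss or gain remained within it. Such an interval was also found for 7077 of all 46790 tested transcripts and for 5926 of the 12321 well-measured ones. The share in lasting rises was near that of the well-measured ones and does not set them apart from these. The first 5 lasting rises, ranked by the smaller of their changes at 6 h and 1 h, had changes of 2.96 to 5.69 at 6 h and 2.62 to 6.38 at 1 h. The leading one, 2108 bases long, was at 89.4, 78.7 and 38.3 CPM after 6 h of KCl, against 1.82, 0.662, 1.21 and 1.54 CPM with 7 h of TTX and APV. After 1 h of KCl it was at 423, 409.6, 436, 469 and 479 CPM, against 4.37, 1.47, 6.19, 9.35 and 4.99 CPM at rest. In both experiments every KCl library stood far above every control, but the levels at 6 h were well below those at 1 h and the controls were lower too.

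For this transcript the log2 fold change was 5.69 at 6 h (SE 0.463, edgeR adjusted p = 9.36e-07) and 6.38 at 1 h (SE 0.364, edgeR adjusted p = 4.29e-08). The difference was -0.70 with a 95% interval of -2.04 to 0.64 (edgeR adjusted p = 0.594), and it was -1.35, -0.40 and -2.13 in cultures 3-7, 4-2 and 4-4. Leaving out 1 library gave -1.02 (without the resting library of culture 4-3) to -0.39 (without the 6 h KCl library of culture 4-4), and none of these was called. Its rise over control averaged 67.5 CPM at 6 h and 438 CPM at 1 h. Over all 339 lasting rises the difference changed sign in CPM, against its sign in log2, for 130 (38.3%), and over all tested transcripts for 5879 (12.6%). Lasting rises were chosen for having no called difference, so this share is a description.

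**Figure D3:**
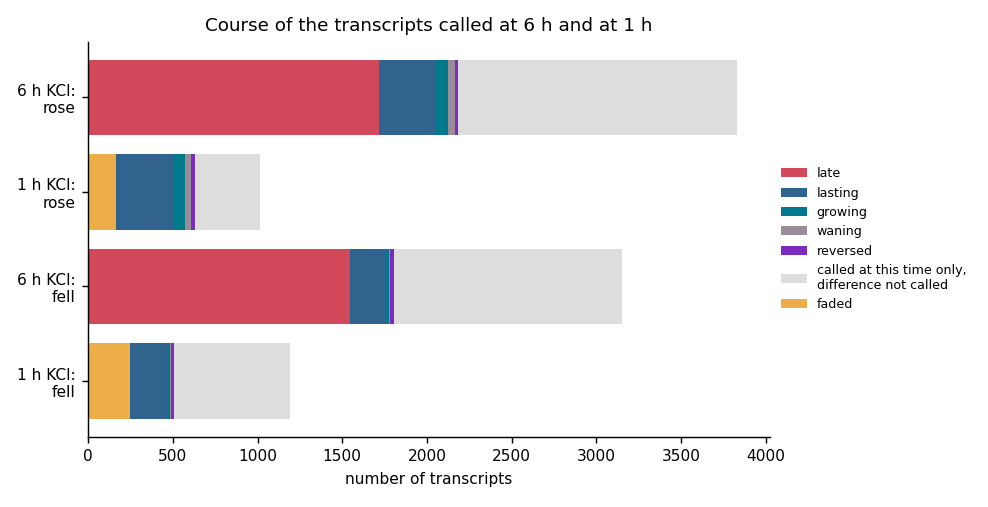
Number of transcripts called higher or lower at 6 h and at 1 h of KCl, split by course. The 6 h bars are mostly late changes (1716 rises, 1543 falls) and calls at 6 h alone. In the 1 h bars lasting changes (339 rises, 215 falls) and faded ones (163 rises, 249 falls) stand beside calls at 1 h alone. The latter (382 rises, 683 falls) had no called difference.

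The 69 growing rises had a median log2 change of 1.89 at 6 h and 0.66 at 1 h, and 62 of them averaged at least 10 CPM with no library at 0, as did 26.3% of all tested transcripts. Their median level was 44.4 TPM at 6 h of KCl, 12.3 at 7 h of TTX and APV, 27.2 at 1 h of KCl and 14.7 at rest. The 39 waning rises ran the other way, with a median of 1.10 at 6 h and 2.69 at 1 h. All 39 had a higher mean CPM at 6 h of KCl than at rest, beside the 23195 of 46790 tested transcripts given above.

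Of the 1193 transcripts that fell at 1 h, 249 faded (20.9%), 215 lasted (18.0%), 17 grew, 9 waned and 20 rose at 6 h, and 683 (57.3%) had neither a call at 6 h nor a called difference. Faded falls had a median change of 0.12 at 6 h and -1.69 at 1 h. Lasting falls had medians of -1.30 at 6 h and -1.35 at 1 h. For 84 of the 215 the 95% interval of the difference lay within -1 to 1. So it did for 7077 of all 46790 tested transcripts and 5926 of the 12321 well-measured ones. The median level of lasting falls was 3.18 TPM at 6 h of KCl, 8.77 at 7 h of TTX and APV, 1.34 at 1 h of KCl and 3.56 at rest. The 6 h level was thus near rest, below a higher control. In CPM the difference had the opposite sign to log2 for 99 of the 215 (46.0%), and for 12.6% of all tested transcripts. Over all 1193 the median level was 0.935 TPM after 1 h of KCl and 2.87 TPM at rest, where the resting median of all tested transcripts was 2.94 TPM. The 17 growing falls had medians of -1.58 at 6 h and -0.70 at 1 h, and the 9 waning falls of -0.84 and -2.37.

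ENSMUST00000160029.1, 2144 bases long, stands for the faded falls. Its levels were 36.7, 31.9 and 25.9 CPM after 6 h of KCl, against 22.3, 19.9, 19.9 and 13.4 CPM with 7 h of TTX and APV. After 1 h of KCl they were 2.76, 1.70, 1.15, 2.65 and 2.03 CPM, against 13.9, 11.5, 11.8, 24.6 and 19.2 CPM at rest. All 1 h KCl libraries lay below every other library, and the 6 h KCl libraries above every control of either time. The log2 fold change was 0.74 at 6 h (SE 0.294, edgeR adjusted p = 0.113) and -2.96 at 1 h (SE 0.275, edgeR adjusted p = 7.08e-06). The difference was 3.70 (SE 0.399, edgeR adjusted p = 4.09e-05), with 3.40, 3.68 and 3.96 in cultures 3-7, 4-2 and 4-4. The first 5 faded falls had changes of -0.43 to 0.74 at 6 h and -3.04 to -1.50 at 1 h.

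A reversal of direction was rare. Of the 730 transcripts called at both times, 688 went the same way, 447 up and 241 down, and 42 went opposite ways (5.75%). In 22 the change was a fall at 6 h and a rise at 1 h, with medians of -0.72 and 0.47, 6 h changes of -5.03 to -0.36 and 1 h changes of 0.24 to 2.83. In 20 it was a rise at 6 h and a fall at 1 h, with medians of 0.89 and -0.88, 6 h changes of 0.57 to 4.57 and 1 h changes of -5.92 to -0.24. All 42 had a difference of the same sign in each of the 3 cultures with all conditions. So had 41.5% of all tested transcripts and 56.2% of the well-measured ones. These cultures are part of the fit, so this describes the reversals and does not add to them. Of the 42, 38 averaged at least 10 CPM with no library at 0, as did 26.3% of all tested transcripts. Most reversals were small: 4 remained when both changes had to reach 2-fold. The count was 24 without the 6 h KCl library of culture 4-2, 26 without the 1 h KCl library of culture 4-2 and 112 by DESeq2.

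The reversed transcript that leads by the rule is 10071 bases long. It was at 1.22, 2.72 and 1.71 CPM after 6 h of KCl, against 51.0, 57.8, 72.1 and 67.9 CPM with 7 h of TTX and APV. After 1 h of KCl it was at 141, 76.0, 172, 163 and 91.7 CPM, against 67.5, 5.15, 2.32, 12.8 and 34.3 CPM at rest. No KCl library overlapped with its controls at either time. In CPM the SD was 42.9 around a mean of 128.8 in the 1 h KCl group, and 27.1 around a mean of 24.4 at rest. Relative to their mean the resting libraries spread most, from 2.32 to 67.5 CPM, and the 1 h change is measured against them. The log2 fold change was -5.03 at 6 h (SE 0.998, edgeR adjusted p = 0.00237) and 2.41 at 1 h (SE 0.622, edgeR adjusted p = 0.0361). The difference was -7.44 (SE 1.18, edgeR adjusted p = 0.000885), with -9.00, -10.6 and -6.45 in cultures 3-7, 4-2 and 4-4.

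**Figure D4:**
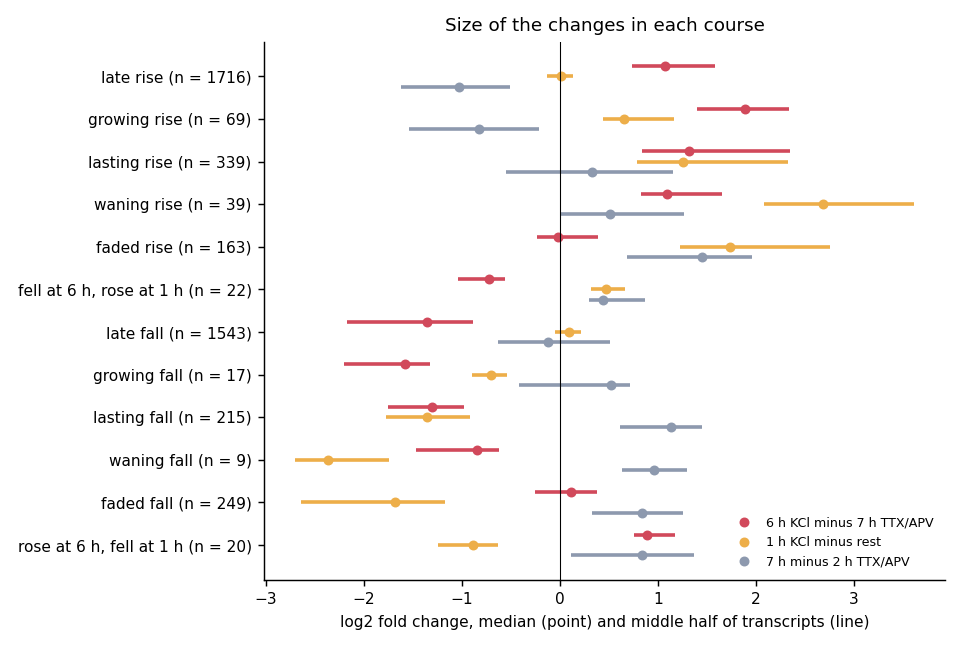
Median (point) and middle 50% of transcripts (line) of the log2 fold change in each course, for 6 h of KCl minus 7 h of TTX and APV, 1 h of KCl minus rest, and the controls, 7 h minus 2 h of TTX and APV. Late rises sit at 1.08 at 6 h and 0.02 at 1 h, with controls that were lower at 7 h (-1.03), and faded rises at -0.02 and 1.73, with controls that were higher at 7 h (1.45).

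Length, which the contrast did not use, is given per course as a description. The median length was 2342 bases over all tested transcripts and 3426 over the 12321 that averaged at least 10 CPM with no library at 0. It was 3223 bases for late rises, 3606 for late falls, 3015 for faded rises, 2538 for faded falls, 2953 for lasting rises and 3188 for lasting falls. The 22 transcripts that fell at 6 h and rose at 1 h had the longest median of any course, 7427.5 bases, and 18 of them exceeded 4000 bases (81.8%), against 40.2% of the well-measured and 21.4% of all tested transcripts. Long transcripts also draw more counts. Among the 11698 transcripts with the highest mean CPM 13.2% had a higher and 8.48% a lower response at 6 h, and among the 11698 with the lowest 0.641% and 0.880%. The share of all counts on transcripts over 4000 bases was 46.0% to 47.2% in the 6 h KCl libraries, 43.4% to 45.5% with 7 h of TTX and APV, 44.5% to 45.8% after 1 h of KCl and 42.7% to 44.9% at rest. Whether depth or isoform assignment has a part in the lengths was not tested.

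**Figure D5:**
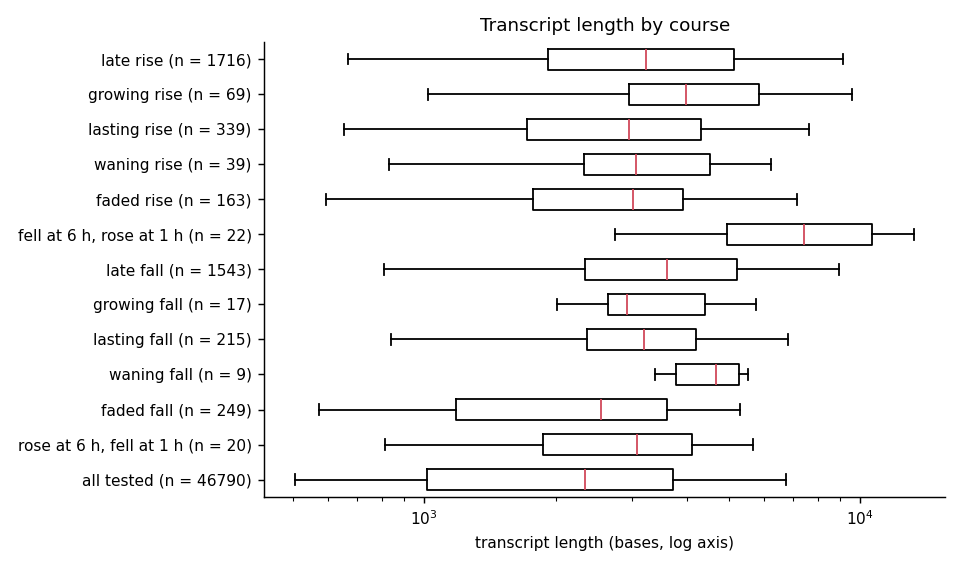
Transcript length in bases (log axis) by course, with the median (red), the middle 50% (box) and the 5th to 95th percentile (whiskers). The transcripts that fell at 6 h and rose at 1 h have the longest median, 7427.5 bases, against 2342 for all tested transcripts.

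Estimated counts per transcript also depend on how reads were assigned among isoforms of the same gene, so a course can be that of an isoform. A group listed at 0 in all its libraries occurred in 48 of the late rises (2.8%) and 130 of the late falls (8.43%). It occurred in 9 of the faded rises (5.52%) and 23 of the faded falls (9.24%), and in 2980 of all 46790 tested transcripts (6.37%). Set at a floor of 3 counts over the group, such transcripts moved the median of no course by more than 0.045 on the log2 scale.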

How the data were processed

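The authors deposited, per RNA-seq library and per the file headers, estimated counts, effective lengths and TPM values per transcript. Of the tools in the submitters' processing notes, kallisto 0.44.0 writes tables of this layout; the notes give no role for it, for Trim Galore or for DESeq2, and list mm10 beside mm9. Per the labels' protocols, total RNA was made into stranded libraries.

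The deposited estimated counts were rounded to whole numbers and tested with edgeR 4.0.16 (R 4.3.3): filterByExpr by group, TMM, a robust quasi-likelihood fit of the 17 wild-type libraries and contrasts of the group means. P-values were adjusted by Benjamini-Hochberg across the 46790 transcripts tested, with a threshold of 0.05. An SE is the log2 change over the square root of F, and 95% intervals use it. CPM uses TMM-scaled totals, and log2 CPM per culture a prior count of 2. TPM is the deposited value, averaged over a group. A fit on simulated data with known differences was checked first.

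By rule, 4 identifiers are printed: the largest difference in a course among transcripts with a mean of at least 10 CPM, no library at 0 and one sign in the 3 cultures with all groups. Lasting and reversed courses are shown by a transcript named by its length; lasting rises were ranked by the smaller of the changes at 6 h and 1 h instead. Gene lists and cell type markers were not analysed here. Courses, rule and alternatives were chosen with earlier results of these data known. A shared culture code was read as the same replicate, since the codes number as many as the stated replicates. Alternatives were other scalings, filters, tests, samples, thinned counts, blocks and leaving out each library. ATAC-seq was not used here.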

Additional observations from a re-analysis of the deposited data

Results flagged for a closer look

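A response that differed between 6 h and 1 h was found for 2170 transcripts in the higher and 1882 in the lower direction. Among the transcripts described one by one, the late-minus-early log2 difference was 5.20 for the late rise, 3.70 for the faded fall, -3.72 for the late fall, -3.97 for the faded rise and -7.44 for the reversed transcript, each by the test of the difference itself (edgeR). Of 30 groups of 4 or 5 libraries examined for a library far from the others, 2 held such a library, and chance alone gives about 1 in 20. Both concern the late rise: the 7 h TTX/APV library of culture 3-7 was at 8.17 CPM, with the other 3 at 5.84 to 5.93 CPM, and the resting library of culture 4-3 was at 34.1 CPM, with the other 4 at 13.05 to 17.5 CPM.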

How the results depend on the processing

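The main counts are 2170 higher and 1882 lower differences, 163 faded rises, 339 lasting rises, 1716 late rises, 1543 late falls and 42 reversals. Leaving out each library gave 1633 to 2204, 1509 to 1851, 126 to 176, 269 to 339, 1299 to 1818, 1262 to 1543 and 24 to 40, in that order. With only the 3 cultures that have all conditions they were 988, 821, 55, 170, 821, 719 and 11, and with the replicate block on these cultures 776, 584, 32, 118, 668, 524 and 9. With the culture code as a replicate block on all 17 libraries they were 1804, 1533, 120, 264, 1498, 1270 and 34, and no count moved by over 1.5 times. Deviations from group means correlated at -0.0278 to 0.0573 between libraries with the same code and at -0.0709 to 0.0674 between others. At an adjusted p under 0.01 the counts were 1075, 891, 64, 194, 942, 778 and 7. A 2-fold limit on each called change left 1310 higher and 1406 lower differences, 187 lasting rises, 833 late rises, 1020 late falls and 4 reversals. Scaling by totals gave 1445 higher differences and 1118 late rises. DESeq2 gave 267 faded rises and 112 reversals, and no filter 14 reversals. Where samples were dropped, fewer libraries entered the fit; the cause of the other shifts was not tested. Thinning every library at random to the smallest total, done once, left 36922 transcripts to test, with 1995 higher and 1702 lower differences. These counts moved by less than 1.5 times. Beyond this, the part of the deeper sequencing of the 1 h experiment was not tested. The 6 described transcripts kept the sign of their difference in all 28 alternatives.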

Other observations

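A further 205 transcripts had a called difference without a call at either time. In 107 of them the response was higher at 6 h, with a median log2 change of 0.73 at 6 h and -0.67 at 1 h. In the other 98 it was lower, with medians of -0.75 at 6 h and 0.60 at 1 h. In all 205 the fitted changes at 6 h and at 1 h had opposite signs, as had 20532 of all 46790 tested transcripts. A called difference with neither change called nearly always needs opposite signs, so this follows from how the 205 were chosen. The 205 are not counted as reversals, since neither change passed its own test. The 107 with a higher difference had a median length of 2507 bases and a median level of 10.2 TPM at 6 h of KCl, 6.14 TPM at 7 h of TTX and APV, 3.05 TPM at 1 h of KCl and 6.22 TPM at rest.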
